A study of Mus musculus with 32 samples.

Results

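Control border macrophages of the stroke experiment were compared between the lesioned (ipsilateral) and the contralateral hemisphere. The cells were subdural CNS-associated macrophages (sdCAMs), the macrophages of perivascular spaces and leptomeninges, and they were profiled by bulk RNA-seq. Members were all sdCAM libraries of control (CTL) mice except the ipsilateral library of mouse A3, which held 54055 counts and was labelled as degraded RNA. This left 7 of 8 CTL sdCAM libraries, out of 32 libraries in the series. The groups were 3 ipsilateral libraries (mice A2, A4 and B1) and 4 contralateral libraries (A2, A3, A4 and B1), so that 3 mice contributed both hemispheres. All mice were adult wild-type C57BL/6JCrl animals, with both sexes in each group. CTL mice had received the vehicle, aqueous hydroxypropyl-β-cyclodextrin, for 7 days by gavage, and mice set beside them had received the CSF1R inhibitor BLZ945 at 200 mg per kg. Stroke was induced 8 weeks later by injection of thrombin into the middle cerebral artery, and cells were taken 1 day after it. sdCAMs were sorted as cells negative for Ly6C, Ly6G and CD11c and positive for CD45, CD11b and CD206, after removal of the choroid plexus. Gates on the first 3 markers remove monocytes, neutrophils and dendritic cells, and CD206 is encoded by Mrc1, so that this gene was selected at the protein level.

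Border macrophages lie between the vessel wall and the brain parenchyma, where they take up debris and macromolecules from the blood and the cerebrospinal fluid. They depend on signalling through CSF1R and carry scavenger and pattern recognition receptors. In ischemic stroke they sit next to the occluded vessel, and they are known to take part in leukocyte recruitment and in changes of vessel permeability.

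Total counts on genes were 8366777, 8297066 and 9956038 in the ipsilateral libraries of A2, A4 and B1. They were 10471038, 9415481, 11081409 and 8836860 in the contralateral libraries of A2, A3, A4 and B1. Fewer genes were detected ipsilaterally (13623, 14047 and 15144) than contralaterally (15202, 16360, 16378 and 15964), and the groups did not overlap. The libraries of a group differed by 49.2 to 85 times the sampling variance per gene, so that none was a copy of another. Levels are given as CPM, which are counts scaled to library size and TMM factor, in the mouse order A2, A4, B1 for ipsilateral and A2, A3, A4, B1 for contralateral libraries, and SE is the standard error of a log2 fold change. A level of 0 allows up to 0.322 to 0.389 CPM ipsilaterally and 0.253 to 0.328 CPM contralaterally, by counting error alone (3 counts per library). Genes are named by symbol, since the study's methods name several genome builds, by date of the experiment, without saying which gave these counts.

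The 3 markers of the sorted cells were present in every library. Mrc1, the endocytic mannose receptor, was at 1146, 1759 and 2325 CPM ipsilaterally and 1081, 415, 649.9 and 1643 CPM contralaterally (log2 fold change 0.88, SE 0.49, edgeR adjusted p = 0.344). Its groups overlapped, with the A3 and A4 contralateral libraries lowest. Cd163, a scavenger receptor for hemoglobin, was at 454, 992 and 942 CPM ipsilaterally and 619, 161, 370.3 and 705 CPM contralaterally (log2 fold change 0.78, SE 0.49, edgeR adjusted p = 0.402). The chemokine Pf4 was at 504, 523 and 728 CPM ipsilaterally and 758, 246, 315 and 540.5 CPM contralaterally (log2 fold change 0.33, SE 0.36, edgeR adjusted p = 0.666). Neither group of libraries stood apart for these genes, and A3 contralateral was lowest for all 3. The log2 fold change of Pf4 turned to -0.15 when libraries were scaled to macrophage genes and to -0.01 with the degraded libraries added. Pf4 is itself among the genes of the macrophage scaling, which draws its value towards 0. Summed over the 20 genes of the border macrophage list, of which Apoe was the most abundant, the level was 24874, 35931 and 31822 CPM ipsilaterally and 26788, 14402, 18176 and 31314 CPM contralaterally. These sums overlapped, and 0 of the 20 genes passed the test in either direction.

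Markers of microglia were abundant as well, and P2ry12 was above Mrc1 in every library. P2ry12, a purinergic receptor of homeostatic microglia, was at 4083, 7003 and 2522 CPM ipsilaterally and 4597, 3427, 3735 and 2939.9 CPM contralaterally, and Tmem119 at 2982, 3659.6 and 1930.3 CPM ipsilaterally and 2495, 2119, 2503 and 2012 CPM contralaterally. Both genes were present on both sides with overlapping libraries, and neither was called (log2 fold change 0.30 and 0.32, edgeR adjusted p = 0.668 and 0.622). Their sign turned when libraries were scaled to macrophage genes (-0.32 and -0.30). The 11 tested genes of the microglia list, led by Cst3, summed to 42383, 48293 and 25406 CPM ipsilaterally and 39816, 33820.3, 34030.5 and 27644 CPM contralaterally. These sums were above those of the border macrophage list except in B1 on both sides. The median log2 fold change of the microglia list was 0.30 (-0.30 under the macrophage scaling). The libraries therefore carried border macrophage and microglial transcripts together on both sides, and the part of microglial RNA in the results was not tested. The contralateral libraries of A3 and A4 stood apart from the others. They had the highest sums of 10 endothelial markers (8003 and 6712 CPM, at most 2634 CPM elsewhere) and the lowest sums of border macrophage and pan-macrophage genes.

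**Figure D1:**
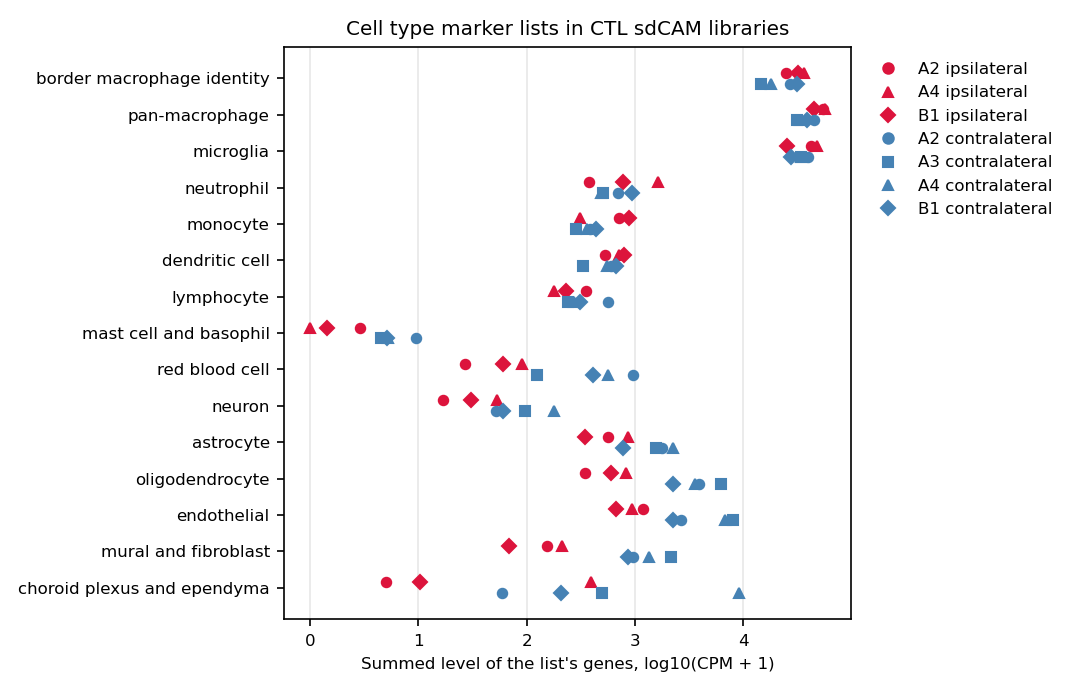
Summed level of each cell type marker list in the 7 CTL sdCAM libraries, as log10(CPM + 1) on the horizontal axis, with 1 point per library (red ipsilateral, blue contralateral, shapes for mice). The endothelial, oligodendrocyte and mural lists lay lower in all 3 ipsilateral than in all 4 contralateral libraries, while the border macrophage and microglia lists overlapped.

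Of 18297 genes tested, 78 (0.426%) were higher and 432 (2.36%) lower in ipsilateral than in contralateral sdCAMs at an edgeR adjusted p under 0.05, and 3346 had an unadjusted p under 0.05. The 78 genes were moderately higher, with log2 fold changes from 0.63 to 1.96 (median 1.03) and a median level of 189.6 CPM ipsilaterally. The 432 lower genes went from a median of 40.8 CPM contralaterally to 2.58 CPM ipsilaterally, with log2 fold changes of -0.89 or lower, and 75 of them had no count in any ipsilateral library. Their median log2 fold change was -4.18 as fitted and -3.91 with the genes at 0 set to their bound. All 78 higher and 426 of the 432 lower genes had libraries that did not overlap between the hemispheres. Among all genes tested, 5.7% were higher and 10.2% lower without overlap. Over all genes the median log2 fold change was -0.11, and 44.9% of the values were positive. The 4170 genes with a mean above 50 CPM had a median of 0.21. Shares of all genes that stand beside gene groups below were not matched for level. Predicted genes, 1 of the 78 and 8 of the 432, were counted and are not named. In bulk RNA, fewer cells of a type and less RNA per cell cannot be told apart.

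The count of higher genes changed with the scaling and with single libraries. Of the named higher genes, all but Msr1 lost their call under the macrophage scaling and all lost it with the degraded libraries added. When the libraries were scaled to 36 macrophage genes, an alternative chosen after seeing the data, only Msr1 was called higher (log2 fold change 1.47, edgeR adjusted p = 0.0422) and 617 genes were lower, 431 of them among the 432. The median of all genes then moved from -0.11 to -0.74, and the share of higher genes among those called from 15.3% to 0.162%. Directions of higher genes below are therefore relative to all transcripts of a library, and medians under the macrophage scaling stand beside most gene groups. With the mouse as a block, which uses the 3 mice with both hemispheres as pairs, 23 genes were higher and 270 lower, of which 11 and 213 were among the 78 and 432. Leaving out 1 library gave 6 higher and 165 lower genes without A3 contralateral, 13 and 210 without A4 contralateral, 22 and 192 without A2 ipsilateral, and 21 and 261 without B1 ipsilateral. Without A4 ipsilateral 42 genes were higher and 335 lower. By DESeq2's Wald test 321 genes were higher and 1502 lower, with 78 and 431 of those called by edgeR among them. For a single value, an exact permutation test of 3 against 4 libraries cannot go below p = 0.0571.

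The gene with the largest fold among those called higher was Msr1, the class A scavenger receptor that takes up modified lipoproteins. It was at 1009, 536 and 1094 CPM ipsilaterally and 325, 135, 160.3 and 287 CPM contralaterally. All ipsilateral libraries were above all contralateral ones, with A4 the lowest ipsilaterally and A3 and A4 the lowest contralaterally. Its mean was 879.8 ± 301 against 227 ± 93.6 CPM (SD, n = 3 and 4), 3.88-fold higher by the fit (log2 fold change 1.96, SE 0.42, edgeR adjusted p = 0.0236), and the call was kept with the mouse as a block (edgeR adjusted p = 0.00351). The call was lost without the A2 ipsilateral, A3 contralateral, A4 contralateral or B1 ipsilateral library (edgeR adjusted p up to 0.0787). Of 28 genes tested on the lipid handling list, which includes Msr1, no other passed, against 0.426% of all genes called higher and 2.36% lower. The median log2 fold change of the list was 0.10 (-0.49 scaled to macrophage genes, 2 higher and 0 lower calls with the mouse as a block). Apoe, the most abundant gene of that list, was at 12722, 18988 and 13774 CPM ipsilaterally and 14838, 8612, 10252 and 16725 CPM contralaterally, with overlapping groups.

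Genes of Toll-like receptor signalling were called higher in 3 of 27 tested cases, against 0.426% of all genes, and in 0 cases lower. Tlr13, an endosomal receptor for bacterial ribosomal RNA, was at 722, 628 and 744 CPM ipsilaterally and 324, 208, 256 and 356 CPM contralaterally. Every ipsilateral library held at least 628 CPM and no contralateral library more than 356 CPM. The gene rose from a mean of 286 ± 66.9 to 698 ± 61.4 CPM (SD, n = 4 and 3, log2 fold change 1.29, SE 0.26, edgeR adjusted p = 0.0175), also with the mouse as a block (edgeR adjusted p = 0.0385). Ticam2, which couples Tlr4 to its endosomal adaptor, was at 66.2, 95.2 and 67.5 CPM ipsilaterally and 21.5, 34.3, 24.8 and 35.6 CPM contralaterally (log2 fold change 1.39, SE 0.33, edgeR adjusted p = 0.0363, 0.0364 with the mouse as a block). Its ipsilateral libraries were again all higher, with A4 on top. Tlr1, a partner of Tlr2 in the recognition of lipoproteins, was at 96.2, 134 and 123 CPM ipsilaterally and 61.3, 37.2, 40.2 and 59.2 CPM contralaterally (log2 fold change 1.25, SE 0.32, edgeR adjusted p = 0.0478), and its call was lost with the mouse as a block (edgeR adjusted p = 0.111). Tlr2 itself did not pass at 414, 458 and 775 CPM ipsilaterally and 273, 91.9, 127 and 331 CPM contralaterally (log2 fold change 1.42, edgeR adjusted p = 0.0958), although its libraries did not overlap. Cd14, the most abundant gene of the list, overlapped between the groups (1787, 1037 and 3156 CPM ipsilaterally and 1025, 664, 499 and 1596 CPM contralaterally). Over the list 26 of 27 genes had a positive log2 fold change (17 under the macrophage scaling) and 6 were higher without overlap, against 44.9% and 5.7% of all genes, with a median of 0.68 that became 0.18 when scaled to macrophage genes, and 2 genes were called higher with the mouse as a block. The call of Tlr13 was lost without the A2 ipsilateral, A3 contralateral or B1 ipsilateral library (edgeR adjusted p up to 0.0571). That of Ticam2 was lost without any library but B1 contralateral, and that of Tlr1 without any library but A2 contralateral (edgeR adjusted p up to 0.111 and 0.129).

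Gpr84, a receptor for medium-chain fatty acids, was at 199, 166 and 267 CPM ipsilaterally and 110.2, 58.6, 44.7 and 83 CPM contralaterally (log2 fold change 1.51, SE 0.36, edgeR adjusted p = 0.0356), and its call was kept with the mouse as a block (edgeR adjusted p = 0.0296) and lost without the A2 ipsilateral, A3 contralateral, A4 contralateral, B1 ipsilateral or B1 contralateral library (edgeR adjusted p up to 0.124). Fcgr4, an activating receptor for IgG, was at 132, 36.1 and 58.2 CPM ipsilaterally and 24.1, 23.6, 27.5 and 27.6 CPM contralaterally (log2 fold change 1.55, SE 0.35, edgeR adjusted p = 0.0291), and its call was lost with the block (edgeR adjusted p = 0.178) and without the A2 ipsilateral, A2 contralateral, A3 contralateral or A4 contralateral library (edgeR adjusted p up to 0.16). The 4 contralateral libraries of Fcgr4 lay close together, whereas A2 stood at the top of the ipsilateral ones. Plbd1, a phospholipase of the lysosome, was at 127, 176 and 168 CPM ipsilaterally and 67.6, 47.7, 68.2 and 67.2 CPM contralaterally. Its contralateral libraries were close together except A3, which was lower, and all ipsilateral libraries were above them. Plbd1 averaged 157 ± 26.5 against 62.7 ± 9.99 CPM (SD, n = 3 and 4), a log2 fold change of 1.32 (edgeR adjusted p = 0.0147), and was the only named higher gene called in all 7 fits that left out a library, while the block ended its call (edgeR adjusted p = 0.0905). Il13ra1, a chain of the receptors for IL-4 and IL-13, was at 377, 523 and 378 CPM ipsilaterally and 263, 256, 255 and 270.2 CPM contralaterally (log2 fold change 0.71, SE 0.17, edgeR adjusted p = 0.0388, 0.155 with the mouse as a block), as the only called gene among 35 cytokines and receptors (0.426% of all genes were called higher), and it lost its call without any 1 of the 7 libraries (edgeR adjusted p up to 0.143). Their median was 0.60, 0.59 with genes at 0 set to their bound and 0.04 under the macrophage scaling with 2 lower calls. Csf1r, the most abundant of them, overlapped between the hemispheres at 5646, 8688 and 7399.7 CPM ipsilaterally and 5577, 3189, 4319 and 6177 CPM contralaterally (log2 fold change 0.59, edgeR adjusted p = 0.299). Il1r1, the signalling receptor for IL-1, was at 0.878, 3.37 and 6.87 CPM ipsilaterally and 25.9, 48.9, 35.8 and 33.6 CPM contralaterally and did not pass (log2 fold change -3.27, edgeR adjusted p = 0.0544).

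Of the chemokine system, ligands gave 1 higher and 1 lower call among 25, against 0.426% and 2.36% of all genes. Cxcl16, a membrane-bound ligand of Cxcr6 and a scavenger of oxidized lipids, was at 221, 177 and 260.1 CPM ipsilaterally and 117, 83.1, 77.4 and 147 CPM contralaterally (log2 fold change 1.05, SE 0.26, edgeR adjusted p = 0.0459, 0.0662 with the mouse as a block), without overlap. Its call was lost without any library but B1 contralateral (edgeR adjusted p up to 0.155). Among the receptors, Cx3cr1, the receptor for fractalkine and the most abundant of the list, was at 3775, 4361 and 3378 CPM ipsilaterally and 2424, 1945, 2220.3 and 2404 CPM contralaterally (log2 fold change 0.77, edgeR adjusted p = 0.1) and did not pass. C3ar1 (log2 fold change 1.19, edgeR adjusted p = 0.0969) and the monocyte receptor Ccr2 (1.21, 0.102) likewise did not overlap and did not pass. The 16 chemokine receptors had a median log2 fold change of 0.84 (0.41 under the macrophage scaling), and their summed level was higher in all ipsilateral than in all contralateral libraries (7852, 7084 and 7996 CPM ipsilaterally and 4819, 3330.3, 3620.2 and 4803 CPM contralaterally). Among 25 chemokines the median was 0.57 (0.14 under the macrophage scaling). Ccl12, a ligand of Ccr2 and the most abundant chemokine, was at 1576, 460.1 and 1668 CPM ipsilaterally and 604, 481, 136 and 689 CPM contralaterally, with overlap between A4 ipsilateral and 3 contralateral libraries (log2 fold change 1.37, edgeR adjusted p = 0.225), and it was called with the mouse as a block (edgeR adjusted p = 0.0142). Cxcl12, a chemokine made by stromal and endothelial cells, fell from a mean of 89.6 ± 51.4 to 13.2 ± 4.69 CPM (SD, n = 4 and 3, log2 fold change -2.76, SE 0.49, edgeR adjusted p = 0.00953). Ackr1, the atypical chemokine receptor of venules and red blood cells, was at 2.63, 0.778 and 2.47 CPM ipsilaterally and 27.7, 133, 13 and 49.2 CPM contralaterally (log2 fold change -4.81, SE 0.81, edgeR adjusted p = 0.00712). The calls of Cxcl12 and Ackr1 were kept in every alternative run.

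**Figure D2:**
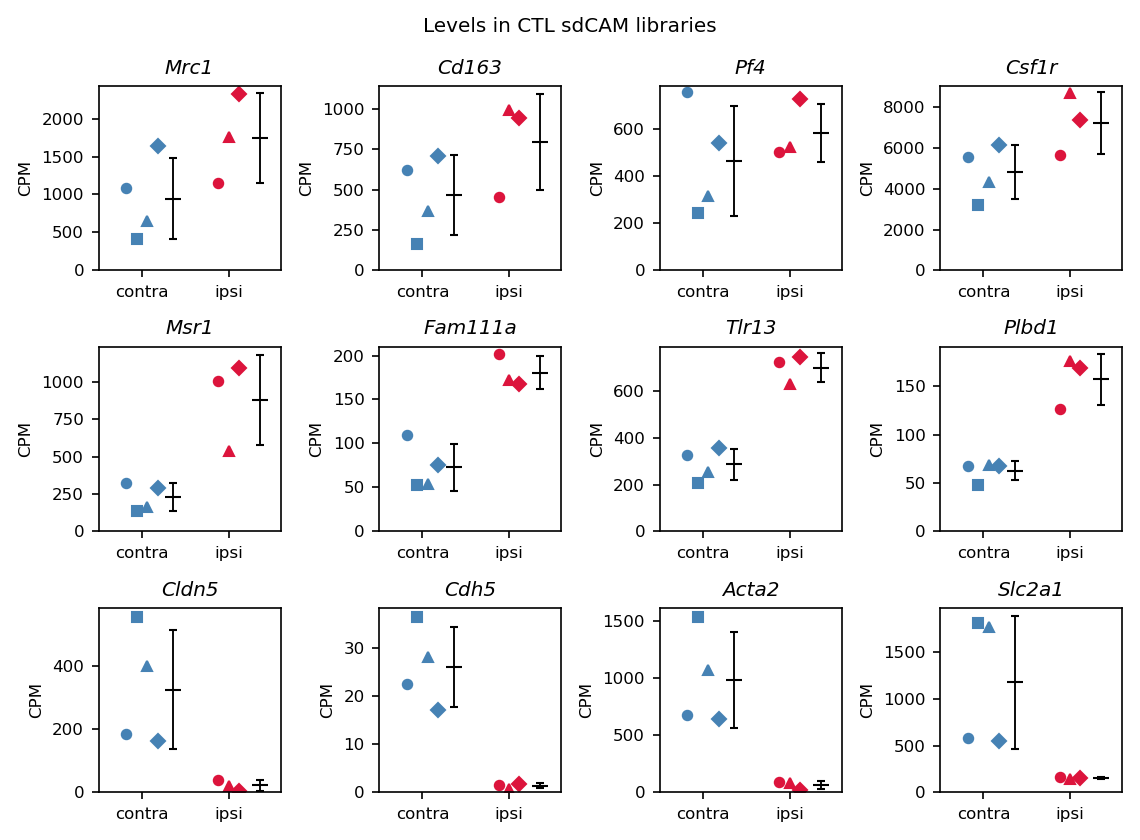
Levels of 12 genes in CPM on a linear axis from 0, with 1 point per CTL sdCAM library (red ipsilateral, blue contralateral, shapes for mice A2 circle, A3 square, A4 triangle, B1 diamond) and the mean with its SD beside each group. Mrc1, Cd163, Pf4 and Csf1r overlapped, Msr1, Fam111a, Tlr13 and Plbd1 were higher and Cldn5, Cdh5, Acta2 and Slc2a1 lower in all ipsilateral libraries.

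Single genes of protein folding in the endoplasmic reticulum and mitochondria were among the higher genes. Hsp90b1, the endoplasmic reticulum chaperone on which Toll-like receptors and integrins depend for folding, was at 1235, 1309 and 1068 CPM ipsilaterally and 842, 715, 792 and 769.8 CPM contralaterally. The contralateral libraries were tightly grouped and all ipsilateral libraries lay above them (log2 fold change 0.63, SE 0.16, edgeR adjusted p = 0.0462). This call was lost with the mouse as a block (edgeR adjusted p = 0.201), and without any 1 of the 7 libraries (edgeR adjusted p up to 0.128). Pdia4, a protein disulfide isomerase (log2 fold change 0.76, edgeR adjusted p = 0.0286), and Edem1, which directs misfolded glycoproteins to degradation (1.12, 0.0472), were the 2 called genes among 24 of the stress and unfolded protein response, against 0.426% of all genes called higher. The median of this list was 0.18 (-0.42 under the macrophage scaling, 0 higher and 0 lower calls with the mouse as a block). Hspa5, the central chaperone of the endoplasmic reticulum and the most abundant gene of the list, did not overlap at 4792, 2442 and 3842 CPM ipsilaterally and 2435, 1482, 1407 and 2383 CPM contralaterally and did not pass (log2 fold change 0.94, edgeR adjusted p = 0.0676). Hspd1, the mitochondrial chaperonin, was at 163, 113 and 186 CPM ipsilaterally and 77.8, 74.8, 71.7 and 85.8 CPM contralaterally (log2 fold change 0.99, SE 0.23, edgeR adjusted p = 0.0354). Mogs, the first glucosidase in the trimming of N-glycans, was at 209, 88.5 and 188 CPM ipsilaterally and 73.7, 55.3, 64.1 and 74 CPM contralaterally (log2 fold change 1.28, SE 0.31, edgeR adjusted p = 0.0384). With the mouse as a block none of Pdia4, Edem1, Hspd1 and Mogs was called (edgeR adjusted p = 0.0957, 0.12, 0.106 and 0.137), and each lost its call without 4 or 5 of the libraries, A2 ipsilateral and A3 and A4 contralateral among them. Of 17 heat shock genes, Hsp90b1 and Hspd1 were higher and Hspb1 was lower (2 and 1 of 17, against 0.426% and 2.36% of all genes), with a median of -0.27 (-0.77 under the macrophage scaling with 2 lower calls, 0 higher and 2 lower calls with the mouse as a block). Hspb1, a small heat shock protein also made by endothelial and other vascular cells, was at 6.65, 5.84 and 3.54 CPM ipsilaterally and 43.7, 113, 81.6 and 30.8 CPM contralaterally (log2 fold change -3.65, SE 0.54, edgeR adjusted p = 0.00364).

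Other called genes belong to 2 families that were chosen after values were seen. Of 12 subunits of the oligosaccharyltransferases, which transfer N-glycans to new proteins, 3 were called higher and 0 lower, 6 were positive and the median log2 fold change was 0.16. Stt3a, a catalytic subunit, was at 749.6, 502 and 761 CPM ipsilaterally and 461, 297, 224 and 327 CPM contralaterally (log2 fold change 1.04, SE 0.24, edgeR adjusted p = 0.0327, 0.0493 with the mouse as a block). The subunits Rpn1 and Magt1 had log2 fold changes of 0.63 and 0.68 (edgeR adjusted p = 0.034 and 0.037, with the mouse as a block 0.143 and 0.157). Of 20 genes of cytosolic aminoacyl-tRNA synthetases, 3 were called higher and 0 lower, all were positive and the median was 0.63. Of all genes, 0.426% were called higher and 44.9% were positive. Eprs1 was at 193, 211 and 254 CPM ipsilaterally and 120.5, 92.5, 129 and 82.3 CPM contralaterally (log2 fold change 1.05, SE 0.23, edgeR adjusted p = 0.0232). Iars1 and Wars1 had log2 fold changes of 1.14 and 0.75 (edgeR adjusted p = 0.0407 and 0.0478). None of the 20 was called higher with the mouse as a block (edgeR adjusted p = 0.0787 for Eprs1, 0.0524 for Iars1 and 0.216 for Wars1). Each of the 6 called genes lost its call without A3 contralateral and other libraries (edgeR adjusted p up to 0.154). Scaled to macrophage genes, Stt3a, Rpn1 and Magt1 had log2 fold changes of 0.47, 0.02 and 0.07. Eprs1, Iars1 and Wars1 had 0.42, 0.54 and 0.15 under that scaling, and none of the 6 was called. The medians of the 2 families were not taken under it.

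The remaining genes with the largest positive changes were not tested as a group. Fam111a, a protease at replication forks, was at 202, 172 and 167 CPM ipsilaterally and 110.0, 52.9, 53.7 and 75.1 CPM contralaterally (log2 fold change 1.31, SE 0.25, edgeR adjusted p = 0.0137, 0.0333 with the mouse as a block). It had the lowest adjusted p among the named higher genes and lost its call without the A2 ipsilateral library (edgeR adjusted p up to 0.0513). Msh6, a DNA mismatch repair protein, was at 65.2, 78 and 54.4 CPM ipsilaterally and 12, 28.2, 14.9 and 28.5 CPM contralaterally (log2 fold change 1.66, SE 0.39, edgeR adjusted p = 0.036). Taf2, a subunit of the general transcription factor TFIID, was at 50.5, 47.9 and 52.9 CPM ipsilaterally and 19.4, 19.3, 13.8 and 11.5 CPM contralaterally (log2 fold change 1.66, SE 0.37, edgeR adjusted p = 0.0263). In both genes the 3 ipsilateral libraries were close to each other and all above the contralateral ones. Tsr1, needed for maturation of the small ribosomal subunit, Pigb, a mannosyltransferase of glycolipid anchors, and Tbl2 had log2 fold changes of 1.64, 1.78 and 1.46 (edgeR adjusted p = 0.0481, 0.0232 and 0.0377). Zfp709, a zinc finger gene of a family with similar copies whose reads the counting may have split, was at 55.1, 57.5 and 21.2 CPM ipsilaterally and 17.1, 5.22, 10.1 and 13.7 CPM contralaterally (log2 fold change 1.95, SE 0.44, edgeR adjusted p = 0.0299). Except for Fam111a, none of these genes was called with the mouse as a block (edgeR adjusted p = 0.0761 for Msh6, 0.0923 for Taf2, 0.132 for Tsr1, 0.123 for Pigb, 0.137 for Tbl2 and 0.209 for Zfp709), and each lost its call without A2 ipsilateral, A3 contralateral or A4 contralateral, among others.

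Promoter sequences of the chaperone genes Hsp90b1 and Hspa5 and of other genes were searched for the endoplasmic reticulum stress response element, CCAAT followed after 9 bases of any kind by CCACG, on both strands, from 250 bases before to 50 bases after gene starts in RefSeq (GRCm38.p6). The letters were found in 39 of 32851 windows (0.119%). Of the 77 higher genes that are named genes and not predictions, 58 had a window and only that of Hsp90b1 held them. Of 40 genes on the stress response and heat shock lists, 35 had a window and those of Creld2, Hsp90b1 and Hspa5 held them. The matches of Hsp90b1 and Hspa5 are shown with 20 bases on each side and the element in capitals, 5′ to 3′ on the strand of the gene. For Hsp90b1 the stretch shown lies at chr10:86705618-86705676 on the minus strand, with the element 212 to 194 bases before the start. For Hspa5 the stretch shown lies at chr2:34772005-34772063 on the plus strand, with the element 65 to 47 bases before the start. A match is a description of letters and not a site of binding.
Hsp90b1: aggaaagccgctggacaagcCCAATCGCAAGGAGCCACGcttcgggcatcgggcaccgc
Hspa5: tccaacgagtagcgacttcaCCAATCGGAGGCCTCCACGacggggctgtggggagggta

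Gene groups of antigen presentation and degradation lay above the median of all genes without a called member. The 14 genes of MHC class II presentation had a median log2 fold change of 0.70 (0.11 under the macrophage scaling), 13 were positive (10 under the macrophage scaling) and 7 were higher without overlap, against 44.9% and 5.7% of all genes. Cd74, the invariant chain, was at 3463, 4794 and 4792 CPM ipsilaterally and 2258, 1649.6, 3328 and 3274 CPM contralaterally (log2 fold change 0.73, edgeR adjusted p = 0.162). H2-Ab1, a class II chain, was at 1660.4, 2011 and 1834 CPM ipsilaterally and 939, 849, 1357 and 1210.4 CPM contralaterally (0.75, edgeR adjusted p = 0.0815). In both genes the A2 and A3 contralateral libraries were lowest and no ipsilateral library reached down to the contralateral ones. The summed level of the list was 18113, 20696 and 17003 CPM ipsilaterally and 12681, 9835, 13164 and 12296 CPM contralaterally. The 32 lysosomal genes had a median of 0.53 (-0.04 under the macrophage scaling) and 10 of them were higher without overlap, against 5.7% of all genes. Ctsb, a lysosomal protease, was at 16552, 14302 and 13388 CPM ipsilaterally and 10263, 5377, 6392 and 9359.7 CPM contralaterally (log2 fold change 0.91, edgeR adjusted p = 0.0708). Ctss, a protease that trims the invariant chain, overlapped at 10046, 10231 and 7195 CPM ipsilaterally and 7401, 5654, 6102 and 5507 CPM contralaterally (0.57, edgeR adjusted p = 0.214), and its sign turned to -0.03 under the macrophage scaling. Ctss is itself among the genes of that scaling. The MHC class II and lysosomal lists had 0 calls in either direction, with and without the mouse as a block.

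The 9 genes tested on the list of the phagocyte NADPH oxidase, which also holds the nitric oxide synthase Nos2, had a median of 0.44 (0.48 with genes at 0 set to their bound, -0.06 under the macrophage scaling) and 0 calls. Cybb, the catalytic subunit, was at 445, 466 and 551 CPM ipsilaterally and 281, 135, 219 and 348 CPM contralaterally and did not pass (log2 fold change 0.99, edgeR adjusted p = 0.11). Nos2 had no count in the ipsilateral libraries. For 22 adhesion molecules and integrins the median was 0.48 (-0.07 under the macrophage scaling), again with 0 calls. Itgb2, the shared chain of leukocyte integrins, did not overlap at 769, 675 and 754 CPM ipsilaterally and 449.9, 289.9, 298 and 459 CPM contralaterally (0.97, edgeR adjusted p = 0.0665). Of 26 paired myeloid receptors, 25 were positive (15 under the macrophage scaling), against 44.9% of all genes, with a median of 0.61 (0.19 under the macrophage scaling, 2 higher and 0 lower calls with the mouse as a block) and 0 calls. Cd300lb, an activating member, was at 40.4, 17.9 and 47 CPM ipsilaterally and 9.97, 11.4, 3.8 and 16.2 CPM contralaterally (log2 fold change 1.77, edgeR adjusted p = 0.11) and was called with the mouse as a block (edgeR adjusted p = 0.022). Dab2, an endocytic adaptor on the border macrophage list, was at 1549.9, 1448 and 2566 CPM ipsilaterally and 997, 377, 589 and 1444 CPM contralaterally and did not pass (1.12, edgeR adjusted p = 0.177). Pan-macrophage genes (16 tested) had a median of 0.47 (-0.12 under the macrophage scaling) and 0 calls, and the median of the border macrophage list was 0.52 (0.01 under the macrophage scaling). These last lists were themselves used for the macrophage scaling.

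Inflammatory programmes gave few calls. The 32 interferon-stimulated genes had a median of 0.56 (0.01 under the macrophage scaling) with 0 calls, and 22 NF-κB and feedback genes 0.50 (0.02 under the macrophage scaling) with 0 calls. The 16 genes of alternative activation had a median of 0.72 (0.18 under the macrophage scaling) and 0 calls. The 29 macrophage transcription factors had 0.39 (-0.17 under the macrophage scaling). Id3 was their only call, as a lower gene (1 of 29, against 2.36% of all genes). The 26 immediate early genes had -0.03 (-0.54 under the macrophage scaling with 1 lower call, 0 higher and 1 lower calls with the mouse as a block) with 0 calls. Fos was at 692, 957 and 3892 CPM ipsilaterally and 1719, 623, 814 and 4113 CPM contralaterally, with B1 highest on both sides. Id3, an inhibitor of DNA binding that is also abundant in endothelial cells, was at 29.6, 8.95 and 11.3 CPM ipsilaterally and 118, 273, 203 and 89.4 CPM contralaterally (log2 fold change -3.36, SE 0.61, edgeR adjusted p = 0.0108), lower in all ipsilateral libraries. Among 22 genes of disease-associated phagocytes the median was 0.80 (0.25 under the macrophage scaling, 2 higher and 1 lower calls with the mouse as a block). Only Vim was called, as a lower gene (1 of 22, against 2.36% of all genes). Spp1, which encodes osteopontin, was at 10024, 27.1 and 2505 CPM ipsilaterally and 3705, 386, 15.3 and 1029 CPM contralaterally, far apart within each group. Itgax, which encodes CD11c and was a negative marker of the sort, was at 52.2, 16 and 57.9 CPM ipsilaterally and 13.3, 7.84, 11.6 and 11.9 CPM contralaterally (log2 fold change 1.91, edgeR adjusted p = 0.0758). Vim, an intermediate filament also of vascular and glial cells, was at 73.2, 40.6 and 81.3 CPM ipsilaterally and 162, 335, 210.5 and 184 CPM contralaterally (log2 fold change -1.78, SE 0.32, edgeR adjusted p = 0.00964). Of the list, 18 of 22 genes were positive (13 under the macrophage scaling), against 44.9% of all genes, and 5 were higher and 2 lower without overlap, against 5.7% and 10.2%. The summed level was higher in all ipsilateral libraries (39136, 23205 and 26209.6 CPM ipsilaterally and 22283, 12736, 12730.2 and 17815 CPM contralaterally).

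Most DNA replication genes had positive log2 fold changes, and none was called. The 33 S phase genes had a median of 0.77 (0.14 under the macrophage scaling), 28 were positive (22 under the macrophage scaling) and 8 were higher without overlap, against 44.9% and 5.7% of all genes, and 0 passed. Mcm3, a subunit of the replicative helicase, was at 174, 109.7 and 120.4 CPM ipsilaterally and 73.7, 41.1, 44.7 and 72.5 CPM contralaterally (log2 fold change 1.21, edgeR adjusted p = 0.0613). Mcm5 of the same complex was at 84.9, 23.2 and 29.2 CPM ipsilaterally and 22.5, 13.6, 9.87 and 7.76 CPM contralaterally (1.77, edgeR adjusted p = 0.0576). All ipsilateral libraries of both genes were above all contralateral ones, with A2 on top. The summed level of the list was 1110.5, 874 and 808 CPM ipsilaterally and 619.5, 510.4, 507 and 599 CPM contralaterally, without overlap. The 35 genes of G2 and mitosis had a median of -0.09 (-0.74 under the macrophage scaling with 2 lower calls). They held 1 call, the lower gene Tubb4b (1 of 35, against 2.36% of all genes), a tubulin that is not specific to mitosis and is also found in cilia. Tubb4b was at 30.3, 21.4 and 34.2 CPM ipsilaterally and 69.3, 161, 117 and 80 CPM contralaterally (log2 fold change -1.90, SE 0.34, edgeR adjusted p = 0.0102). The sum of the G2 and mitosis list overlapped between the hemispheres (279, 144 and 248 CPM ipsilaterally and 234, 392, 272 and 332 CPM contralaterally).

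**Figure D3:**
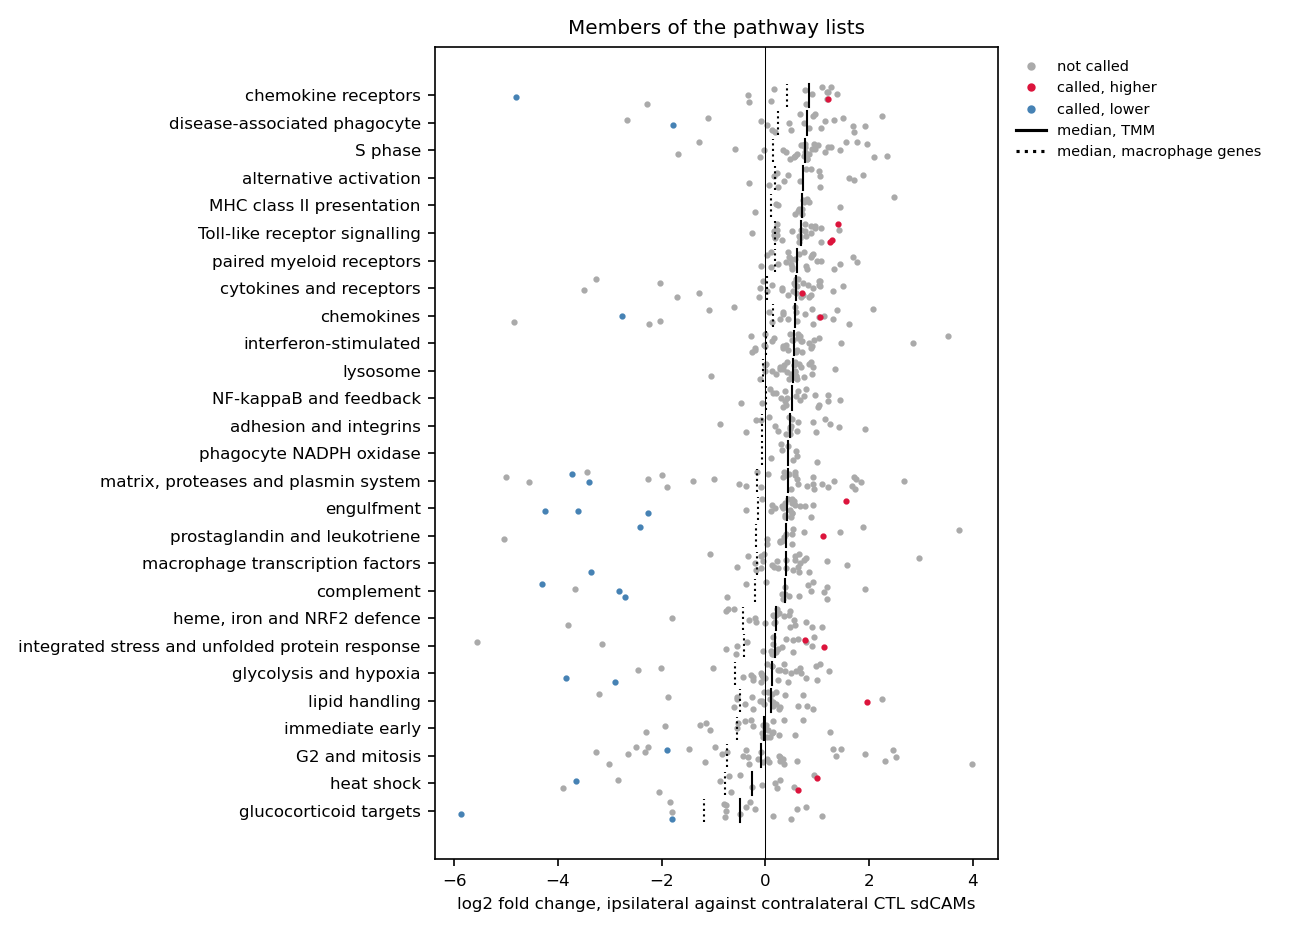
Log2 fold change of each member of 27 pathway lists, ipsilateral against contralateral CTL sdCAMs, with genes at 0 in a whole group drawn at their bound. Grey points were not called, red points were called higher and blue points lower, a solid bar marks the median with TMM scaling and a dotted bar the median scaled to macrophage genes, which lay to the left in every list.

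Among the 432 lower genes were 9 of 10 endothelial markers, against 2.36% of all genes, and all 10 endothelial genes were lower without overlap, against 10.2%. Cldn5, the tight junction protein of the blood-brain barrier, was at 40.9, 20 and 5.9 CPM ipsilaterally and 184, 557, 400.0 and 163 CPM contralaterally. The A3 and A4 contralateral libraries were highest and all ipsilateral libraries were far below (log2 fold change -3.88, SE 0.58, edgeR adjusted p = 0.00434). Cdh5, the endothelial cadherin, was at 1.5, 0.778 and 1.82 CPM ipsilaterally and 22.5, 36.5, 28.2 and 17.2 CPM contralaterally (log2 fold change -4.23, SE 0.54, edgeR adjusted p = 0.00335). Pecam1, an adhesion molecule of endothelial cells, fell from 148 ± 39.3 to 27.6 ± 8.76 CPM (SD, n = 4 and 3, log2 fold change -2.42, SE 0.33, edgeR adjusted p = 0.00335). Vwf, the clotting factor carrier stored in endothelial cells, had a log2 fold change of -5.11 (edgeR adjusted p = 0.00335), and Flt1 and Kdr, receptors for VEGF, had -3.58 and -3.06 (edgeR adjusted p = 0.00335 and 0.0253). Ly6c1, which encodes a form of Ly6C and was thus gated against, the organic anion transporter Slco1a4 and Bsg, the most abundant of the list, were lower by log2 fold changes of -3.69, -3.99 and -1.93 (edgeR adjusted p = 0.0102, 0.00531 and 0.037). Bsg and Kdr were not called with the mouse as a block (edgeR adjusted p = 0.0822 and 0.15), nor without A2, A4 or B1 ipsilateral or A3 or A4 contralateral (up to 0.132 and 0.0951). Summed over the list the level was 1189.8, 928 and 670.5 CPM ipsilaterally and 2634, 8003, 6712 and 2259.7 CPM contralaterally, so that the contralateral mean was 5.28 times the ipsilateral one. The median log2 fold change was -3.74 (-4.55 under the macrophage scaling with 10 lower calls). None of the 10 genes was at 0 in all ipsilateral libraries. The sort selected CD45⁺CD11b⁺ cells, which endothelial cells are not.

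Markers of other cells outside the gate were lower as well. Of 9 oligodendrocyte genes, 4 were called lower and 7 were lower without overlap, against 2.36% and 10.2% of all genes. Among the called genes were the myelin genes Cnp and Cldn11, and Cspg4, which marks oligodendrocyte precursors and pericytes (log2 fold change -1.74, -4.49 and -3.72, edgeR adjusted p = 0.0469, 0.0424 and 0.0319). Cnp and Cldn11 were not called with the block (edgeR adjusted p = 0.0839 and 0.185). Cspg4 lost its call without the A2 ipsilateral, A3 contralateral, A4 contralateral or B1 ipsilateral library (edgeR adjusted p up to 0.107), and Cnp and Cldn11 lost theirs without each of these and A4 ipsilateral, Cnp also without A2 contralateral. The list summed to 342, 821 and 592.9 CPM ipsilaterally and 3852, 6184, 3597 and 2235 CPM contralaterally, without overlap, and its median log2 fold change was -2.64 (-3.40 under the macrophage scaling with 8 lower calls). Of 9 mural and fibroblast genes, the contractile genes Acta2 and Tagln were called lower, against 2.36% of all genes. Acta2 was at 88.8, 85.6 and 23.5 CPM ipsilaterally and 676, 1537, 1068 and 641 CPM contralaterally (log2 fold change -3.89, SE 0.63, edgeR adjusted p = 0.00568), and Tagln was at 4.64, 3.76 and 0.322 CPM ipsilaterally and 43.3, 75, 45.6 and 24.9 CPM contralaterally (log2 fold change -4.03, SE 0.77, edgeR adjusted p = 0.0137). The summed mural level was 153, 210.2 and 67.9 CPM ipsilaterally and 962, 2139.9, 1338 and 865 CPM contralaterally, and the median log2 fold change was -2.17 (-3.07 under the macrophage scaling).

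Choroid plexus and ependymal genes varied widely between libraries. Their sum was 4.01, 392 and 9.33 CPM ipsilaterally and 58.1, 496, 9166 and 205 CPM contralaterally, with A4 contralateral far above all others, and the median log2 fold change was -3.95 (-4.80 under the macrophage scaling with 2 lower calls). Ttr, the transthyretin of choroid plexus epithelium and the most abundant gene of the list, was at 0.502, 342 and 5.58 CPM ipsilaterally and 24.5, 205, 8599 and 74.1 CPM contralaterally. It was not called (log2 fold change -4.26, edgeR adjusted p = 0.293), was called with the mouse as a block (edgeR adjusted p = 0.00299) and turned to 0.19 without the A4 contralateral library. Tmem212, an ependymal gene, was the 1 call among 8 genes (2.36% of all genes were called lower; 4 lower calls with the mouse as a block), at 3.51, 13.4 and 0.751 CPM ipsilaterally and 25.1, 194, 73.2 and 79 CPM contralaterally (log2 fold change -3.99, SE 0.93, edgeR adjusted p = 0.034), and it lost its call without the A2 ipsilateral, A3 contralateral, A4 contralateral or B1 ipsilateral library (edgeR adjusted p up to 0.121). The ciliary transcription factor Foxj1 did not overlap and did not pass (log2 fold change -3.56, edgeR adjusted p = 0.0761). Aqp1 and Kcne2 of this list had no count in any ipsilateral library.

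Red blood cell genes summed to 25.7, 88.8 and 59.7 CPM ipsilaterally and 962, 123, 559 and 407 CPM contralaterally, without overlap, led by the globin Hba-a1 (log2 fold change -3.26, edgeR adjusted p = 0.0908), whose reads may be shared with its near-identical copy. Hba-a2 had no count in any CTL library and none of the 5 genes tested passed, with a median of -2.99 (-3.41 under the macrophage scaling). Of 8 astrocyte genes 0 were called and 4 were lower without overlap, against 10.2% of all genes, and with the mouse as a block 4 were called lower. Their sum was 567, 862 and 347 CPM ipsilaterally and 1786, 1562, 2237 and 767 CPM contralaterally, led by Slc1a3, and their median was -1.74 (-2.40 under the macrophage scaling with 1 lower call). Of 12 neuronal genes 0 were called, and their sum, led by Snap25, was 15.9, 52 and 29.8 CPM ipsilaterally and 50.5, 94.6, 177 and 59.3 CPM contralaterally, and their median was -1.24 (-2.02 under the macrophage scaling). Mast cell and basophil genes (7 tested, 0 called) summed to 1.88, 0 and 0.429 CPM ipsilaterally and 8.46, 3.48, 4.22 and 4.15 CPM contralaterally, led by Tpsb2, and Cpa3, Mcpt4, Fcer1a and Mcpt8 had no ipsilateral count. Their median was -3.17, -1.27 with genes at 0 set to their bound and -3.61 under the macrophage scaling.

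Markers of cells that enter the brain after stroke gave no call. The 15 neutrophil genes, led by Csf3r, summed to 377, 1618 and 771 CPM ipsilaterally and 696, 500.3, 486 and 944 CPM contralaterally, with Elane and Mpo at 0 in all CTL libraries and a median log2 fold change of 0.00 (-0.06 with genes at 0 set to their bound, -0.24 under the macrophage scaling, 1 higher and 0 lower calls with the mouse as a block). The 13 monocyte genes, led by Fn1, had a median of 0.95 (0.33 under the macrophage scaling) and summed to 708, 307 and 870.4 CPM ipsilaterally and 384, 286, 359 and 435 CPM contralaterally. For 11 dendritic cell genes, led by Cd209a, the median was 0.68 (0.10 under the macrophage scaling) and the sum 524, 715 and 791 CPM ipsilaterally and 604, 328, 553 and 672 CPM contralaterally. The 14 lymphocyte genes, led by Nkg7, had a median of -0.50 (-1.02 under the macrophage scaling) and summed to 352, 177 and 232 CPM ipsilaterally and 564, 238, 271 and 309.7 CPM contralaterally. Each of these sums overlapped between the hemispheres. A3 and A4 were the contralateral libraries whose omission moved the counts of called genes most. The part of transcripts of other cells in the change of single genes was not tested.

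Of the called genes with at least 5 CPM contralaterally, the 10 with the largest negative changes had no count in any ipsilateral library. Clec14a, an endothelial lectin, was at 0 CPM in all 3 ipsilateral libraries and 23.1, 69.2, 23.2 and 28.4 CPM contralaterally, at least 99.3-fold lower ipsilaterally by the floor of 3 counts per library (edgeR adjusted p = 0.0046). Ppp1r36, of a phosphatase regulator family, was at 0 CPM in all 3 ipsilateral libraries and 14.5, 62.5, 41.3 and 20.3 CPM contralaterally and at least 95.6-fold lower (edgeR adjusted p = 0.00667). Bbox1, an enzyme of carnitine synthesis, was at 0 CPM in all 3 ipsilateral libraries and 5.46, 54.2, 33.8 and 14.5 CPM contralaterally and at least 74.5-fold lower (edgeR adjusted p = 0.0147). In all 3 genes A3 contralateral was the highest library. Itga8, an integrin chain of contractile cells, was at 0 CPM in all 3 ipsilateral libraries and 11.1, 14.9, 10.3 and 17.8 CPM contralaterally and at least 37.3-fold lower (edgeR adjusted p = 0.00531). Myrip (at least 60.9-fold), the urea transporter Slc14a2 (47.9-fold), Efcab10 (47.1-fold), the ligand Wnt5b (42.4-fold), the ciliary gene Cfap95 (40-fold) and Map6d1 (36.4-fold) were lower with edgeR adjusted p from 0.00786 to 0.0273. Efcab10 was at 3.39, 41, 12.6 and 11.4 CPM contralaterally, Cfap95 at 6.3, 35.7, 7.85 and 8.19 CPM and Myrip at 23.8, 9.19, 46.6 and 8.74 CPM. The bounds of Efcab10 and Cfap95 thus rest largely on A3 contralateral, and that of Myrip on A4 contralateral. Efcab10, Cfap95 and Map6d1 were not called with the mouse as a block (edgeR adjusted p = 0.0665, 0.074 and 0.115). Wnt5b lost its call without the A2 ipsilateral, A3 contralateral or B1 ipsilateral library (edgeR adjusted p up to 0.0598), and Efcab10 and Cfap95 without each of these and A4 ipsilateral.

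Members of the macrophage pathway lists that were called lower included several genes known from vascular and glial cells. Slc2a1, the glucose transporter of the blood-brain barrier, was at 168, 145 and 159.5 CPM ipsilaterally and 582, 1816, 1771 and 548 CPM contralaterally. Its ipsilateral libraries were nearly equal, and A3 and A4 contralateral were well above A2 and B1 contralateral (log2 fold change -2.90, SE 0.42, edgeR adjusted p = 0.00364). Ndrg1, a gene of hypoxia that is also expressed by myelinating cells, was at 12.5, 11.9 and 22.1 CPM ipsilaterally and 135, 362, 313 and 83.9 CPM contralaterally (log2 fold change -3.84, SE 0.62, edgeR adjusted p = 0.00568). These were the 2 calls among 33 genes of glycolysis and hypoxia (2.36% of all genes were called lower), whose median was 0.12 (-0.59 under the macrophage scaling), and no glycolytic enzyme was called. In the engulfment list, with Fcgr4 higher, the bridging protein Mfge8, the receptor Tyro3 and the astrocytic receptor Megf10 were lower among 28 genes, against 0.426% and 2.36% of all genes called higher and lower (median 0.41, 0.44 with genes at 0 set to their bound, -0.15 under the macrophage scaling, 0 higher and 1 lower calls with the mouse as a block). Mfge8 was at 62.1, 120.4 and 46.1 CPM ipsilaterally and 286, 540.5, 461 and 186 CPM contralaterally (log2 fold change -2.27, SE 0.48, edgeR adjusted p = 0.0208), and it lost its call without the A2 ipsilateral, A3 contralateral, A4 contralateral or B1 ipsilateral library (edgeR adjusted p up to 0.0884). Tyro3 and Megf10 had no ipsilateral count and were at least 19-fold and 12.3-fold lower (edgeR adjusted p = 0.00964 and 0.0384). Contralaterally Tyro3 was at 3.39, 14.2, 3.54 and 6.45 CPM and Megf10 at 0.47, 12.6, 4.3 and 0.437 CPM. A3 was the highest library for both, and both bounds rest largely on it. Neither gene was called with the mouse as a block (edgeR adjusted p = 0.136 and 0.197). Megf10 also lost its call without the A2 ipsilateral, A3 contralateral, A4 ipsilateral, A4 contralateral or B1 ipsilateral library (edgeR adjusted p up to 0.102). Marco of the same list had no count in any CTL library.

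Of 20 complement genes (median 0.38, -0.20 under the macrophage scaling, 2 higher and 2 lower calls with the mouse as a block), 3 regulators were lower, against 2.36% of all genes, and none was higher. Cd59a, an inhibitor of the membrane attack complex, was at 4.51, 5.45 and 1.29 CPM ipsilaterally and 24.5, 109, 137 and 24.3 CPM contralaterally (log2 fold change -4.30, SE 0.84, edgeR adjusted p = 0.0145), and it lost its call without the A2 ipsilateral or B1 ipsilateral library (edgeR adjusted p up to 0.056). Clu, or clusterin, was at 71.5, 220.1 and 24.9 CPM ipsilaterally and 514, 773, 1048 and 425 CPM contralaterally (log2 fold change -2.71, SE 0.66, edgeR adjusted p = 0.0395), and the protease inhibitor Serping1 was at 6.9, 2.46 and 10.1 CPM ipsilaterally and 23.6, 95, 26.2 and 40.9 CPM contralaterally (log2 fold change -2.83, SE 0.68, edgeR adjusted p = 0.0372, 0.0571 with the mouse as a block). Clu lost its call without the A2 ipsilateral, A3 contralateral, A4 contralateral or B1 ipsilateral library (edgeR adjusted p up to 0.142), and Serping1 without each of these and A4 ipsilateral. C1qb, the most abundant gene of the list, was at 9729, 8513 and 6507 CPM ipsilaterally and 7984, 5624, 5655 and 6032 CPM contralaterally, with overlap. In the list of matrix, proteases and the plasmin system (38 genes, median 0.43, 0.46 with genes at 0 set to their bound, -0.15 under the macrophage scaling, 0 higher and 3 lower calls with the mouse as a block), the metalloproteinase inhibitor Timp3 and the tissue plasminogen activator Plat were lower, against 2.36% of all genes. Timp3 was at 30.6, 24.4 and 23 CPM ipsilaterally and 186, 400.5, 414 and 92.4 CPM contralaterally (log2 fold change -3.39, SE 0.50, edgeR adjusted p = 0.00364), and Plat was at 6.27, 48.6 and 13 CPM ipsilaterally and 52.4, 539, 424 and 191 CPM contralaterally (log2 fold change -3.74, SE 0.84, edgeR adjusted p = 0.0281). The call of Plat was lost without the A2 ipsilateral, A3 contralateral, A4 contralateral or B1 ipsilateral library (edgeR adjusted p up to 0.101). Among 17 genes of prostaglandin and leukotriene synthesis (median 0.41, -0.19 under the macrophage scaling with 2 lower calls, 0 higher and 0 lower calls with the mouse as a block) Alox5, the enzyme that starts leukotriene synthesis, was higher and Ptgds, a prostaglandin D synthase of leptomeninges and glia, lower, each 1 of 17, against 0.426% and 2.36% of all genes. Alox5 was at 117, 175 and 126 CPM ipsilaterally and 69.8, 50, 60.5 and 77.5 CPM contralaterally (log2 fold change 1.12, SE 0.24, edgeR adjusted p = 0.0252), and its call was lost with the mouse as a block (edgeR adjusted p = 0.103) and without the A3 contralateral, A4 ipsilateral or A4 contralateral library (edgeR adjusted p up to 0.0911). Ptgds was at 97.2, 87.8 and 244 CPM ipsilaterally and 652, 1258, 399 and 747 CPM contralaterally (log2 fold change -2.42, SE 0.52, edgeR adjusted p = 0.0232, 0.0506 with the mouse as a block), and it lost its call without the A2 ipsilateral, A3 contralateral or A4 ipsilateral library (edgeR adjusted p up to 0.0967).

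Of 17 glucocorticoid targets, Klf9 and Pdk4 were lower, against 2.36% of all genes, and 0 higher, with a median of -0.48 (-1.18 under the macrophage scaling with 4 lower calls, 0 higher and 1 lower calls with the mouse as a block). Klf9, a transcription factor induced by glucocorticoids in many cell types, was at 21.6, 39.7 and 35.7 CPM ipsilaterally and 54.9, 160.1, 128 and 105 CPM contralaterally (log2 fold change -1.79, SE 0.34, edgeR adjusted p = 0.0128). Pdk4, a kinase that limits glucose oxidation, was at 0, 0 and 0.751 CPM ipsilaterally and 11.2, 17, 23.8 and 12.6 CPM contralaterally (log2 fold change -5.87, SE 1.18, edgeR adjusted p = 0.0168, 0.0583 with the mouse as a block). Both genes lost their call without the A2 ipsilateral library (edgeR adjusted p = 0.0571 and 0.0508). Dusp1, the most abundant gene of the list, ranged from 294 to 2843 CPM ipsilaterally and from 595 to 2580.4 CPM contralaterally, with B1 highest on both sides. The 26 genes of heme, iron and NRF2 defence had a median of 0.20 (-0.44 under the macrophage scaling with 2 lower calls) and 0 calls, and their most abundant gene, the ferritin chain Fth1, was at 4759, 3357 and 4839 CPM ipsilaterally and 4596, 4172, 3651 and 4869 CPM contralaterally. Ribosomal protein genes (87 tested, 0 called) had a median of -0.06.

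The same contrast in mice treated with BLZ945, with 3 ipsilateral and 4 contralateral libraries of their own in the same fit, gave 220 higher (1.2%) and 807 lower (4.41%) genes. Of the 78 genes higher in CTL mice, 34 were also among the 220 of BLZ945 mice and 71 had a positive log2 fold change, with a median of 0.74 there. Of the 432 lower genes, 356 were also among the 807 and all 432 were negative, with a median of -4.25. The test of the difference between these responses called 0 genes by edgeR (0% of 18297), with 912 at an unadjusted p under 0.05, and 48 by DESeq2. Without the B1 ipsilateral library edgeR called 7. Msr1 had log2 fold changes of 1.96 in CTL and 1.12 in BLZ945 mice (edgeR adjusted p = 0.131), and Tlr13 1.29 and 1.33 (edgeR adjusted p = 0.00944). Plbd1 had 1.32 in CTL and -0.23 in BLZ945 mice (edgeR adjusted p = 0.658), a difference that did not pass after adjustment. The endothelial list had medians of -3.74 and -4.74, with 9 and 10 of 10 genes called lower.

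Whole tissue of the CTL mice A2, A4 and B1 was set beside the sdCAMs as values only, since its counts were normalized separately. The tissue libraries of A3 were not used, because the hemispheres in their column and library names differ. Msr1 was higher ipsilaterally in tissue of all 3 mice, with log2 ratios of 2.05, 1.64 and 2.80 (prior 1 CPM). Gpr84 had 1.07, 1.33 and 1.33, and Tlr1 1.29, 0.94 and 1.23. Mean tissue levels of Msr1, Gpr84 and Tlr1 were low, at 0.335, 0.535 and 0.367 CPM contralaterally and 5.02, 2.65 and 2.06 CPM ipsilaterally. The contralateral means lay below the prior, so that the size of these ratios depends on it. Not all named higher genes had positive tissue ratios. Alox5 had -0.08, -0.10 and -0.08, also at low levels (0.833 CPM contralaterally and 0.724 CPM ipsilaterally). Fam111a had -0.08 in B1 and positive ratios in A2 and A4. Of the 10 endothelial genes, all lower in ipsilateral sdCAM libraries, 5, 8 and 7 had positive tissue ratios in A2, A4 and B1, with medians of -0.01, 0.20 and 0.19. Bsg, the most abundant, had -0.17, -0.18 and -0.09. Vim was lower in sdCAMs and had positive tissue ratios (1.26, 1.07 and 1.62), as had Hspb1 (1.40, 1.15 and 1.74). Median tissue log2 ratios of the 432 lower genes were -0.13, 0.01 and 0.15 in A2, A4 and B1, and those of the 78 higher genes 0.18, 0.15 and 0.07, against 0 over all genes. On the contralateral side, 43.6% of the higher and 32.9% of the lower genes were at least 4 times as high in sdCAMs as in tissue, against 11.9% of all genes, a measure chosen after the values were seen. In the other direction, 0% of the higher, 13.2% of the lower and 15% of all genes were at least 4 times as high in tissue. The same contralateral sdCAM levels entered the selection of the higher and lower genes, so that these shares are not independent of it. A3 contralateral was in the sdCAM means and A3 was not in the tissue means.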

How the data were processed

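The authors sequenced the sorted cells of each hemisphere, aligned the reads and deposited raw counts for 33280 genes per library. The submitters' processing notes name bcl2fastq 2.20, STAR 2.7.11a, featureCounts 2.0.8 and DESeq2 1.46.0. Counts of the 14 sdCAM libraries with intact RNA, in 4 groups of treatment and hemisphere, were fitted here in edgeR 4.0.16 (R 4.3.3) by its quasi-likelihood test with TMM scaling, two-sided, after removal of genes with a summed count under 7. Calls needed p under 0.05 after Benjamini-Hochberg adjustment over all genes tested, and a change of the call rule that also asks for a log2 fold change beyond 0.59 altered no count. The procedure was tested on simulated data, where it kept the sign and size of most changes and called few of the smaller ones. With the mouse as a block it made more false calls there. The simulated counts held no effect of the mouse, so that they cannot judge the block in these libraries. Libraries of 1 mouse come from the same animal, so that the mouse pairs the hemispheres. Deviations from the group means correlated within CTL mice at 0.0963 to 0.322 across 11071 genes (genes are not independent), against a median of -0.072 between different mice.

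Named genes were the markers Mrc1, Cd163 and Pf4, the 15 largest positive and 10 largest negative changes among called genes without overlap and with a mean of at least 5 CPM in the higher group, called members of the 15 cell type and 27 pathway lists, and in each list the most abundant gene and up to 4 genes with the largest change whose libraries did not overlap. Not every gene of this rule is described. P2ry12, Tmem119, Stt3a, Rpn1, Magt1, Eprs1, Iars1 and Wars1 were chosen after their values were seen. The members and lists were chosen with earlier results of these data known. Of the tissue table, 10 columns were not used. Alternatives were a block for the mouse, DESeq2 1.42.0, other scalings and filters, CTL libraries alone, all 16 libraries, and leaving out each library.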

Additional observations from a re-analysis of the deposited data

Results flagged for a closer look

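In the group of 4 contralateral libraries, 148 measures (101 gene levels, 43 list sums and library properties) were screened for a value far from the other 3, by Dixon's ratio, and 8 stood out. Chance gives about 1 in 20, and the measures share libraries.

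Of the 8, 5 were in A3 contralateral. There Clec14a was at 69.2 CPM, against 23.1 to 28.4 in the others, Cfap95 at 35.7 (6.30 to 8.19), Cldn11 at 46.2 (12.2 to 16.8) and Mog, a myelin gene, at 177 (44.5 to 54.8). Plbd1 was lower there, at 47.7 CPM against 67.2 to 68.2 CPM. In A4 contralateral the choroid plexus and ependyma sum was 9166 CPM, against 58.1 to 496, and Ttr was at 8599 CPM, against 24.5 to 205. In A2 contralateral the mast cell and basophil sum was 8.465 CPM, against 3.48 to 4.22.

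The ipsilateral group of 3 libraries was too small for this screen.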

How the results depend on the processing

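For 101 genes, 16 alternatives each gave 1616 values, of which 1220 kept direction and side of the threshold, 344 kept the direction only and lost the call, 43 gained it and 9 turned sign. Of 28 named higher genes, 0 kept the call in all 16, 6 with the block and 1 in all 7 fits without 1 library. Of 44 lower genes it was 18, 32 and 26.

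Using the mouse as replicate block, which pairs the hemispheres, 23 genes were higher and 270 lower. DESeq2's Wald test gave 321 and 1502, and 48 for the difference between treatments. The CTL libraries alone, with fewer samples, gave 46 higher genes, and all 16 libraries, with the degraded ones, gave 3 higher and 202 lower. Scaling to macrophage genes, chosen after seeing the data, gave 1 higher gene. Leaving out 1 library gave 6 to 79 higher and 165 to 469 lower genes, and 0 to 7 for the difference. Other filters and DESeq2's size factors gave 53 to 108 higher and 452 to 583 lower genes.

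Leaving out 1 library gave P2ry12 -0.15 to 0.59 and Ttr -9.48 to 0.19. Signs turned for Pf4 (-0.01 with all 16 libraries, -0.15 scaled to macrophage genes), P2ry12 (-0.09, -0.32, and -0.15 without A4 ipsilateral), Tmem119 (-0.08 and -0.30), Ctss (-0.03 scaled to macrophage genes) and Ttr (0.19 without A4 contralateral). None of these genes was called by TMM. Pf4 and Ctss are themselves among the genes of the macrophage scaling. Beyond the smaller number of samples the cause was not tested. With 3 and 4 libraries, a missed threshold does not show equal levels.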
